A study of Mus musculus with 4 samples.

Results

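The nuclear genes for the proteins of the mitochondrial ribosome were examined in the liver of F1 hybrid mice. They were taken by name, as listed genes whose name starts with Mrpl or Mrps followed by a digit, which gave 76 of the 8797 genes in the files. The rule itself uses no measured value. The mRNA of 4 female livers was measured at 5 months of age. In 2 of the mice the mother was MSM and the father B6 (here called the MSM-mother mice), and in the other 2 the mother was B6 and the father MSM (the B6-mother mice). B6 is C57BL/6J, an inbred strain of Mus musculus domesticus origin, and MSM is MSM/Ms, an inbred strain of Mus musculus molossinus origin. All 4 mice therefore carried a full nuclear chromosome set of each strain. The crosses differed in which parent gave which set, and in all else that comes with the strain of the mother. In a difference in expression between the crosses these cannot be told apart. No treatment was given in the labels, the livers were whole tissue, and there was no pure-strain mouse among the samples. For each gene and mouse the authors deposited an expression level in FPKM (fragments scaled to transcript length and to the fragments mapped in the library) and a B6-allele frequency, which is the B6 share of those reads that could be assigned to an allele. A frequency of 0.5 means equal use of the alleles.

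Mitochondria hold their own ribosomes, which translate the few proteins encoded by mitochondrial DNA, all of them subunits of the oxidative phosphorylation complexes. The ribosomal RNAs of these ribosomes come from mitochondrial DNA, but every protein of the large (Mrpl) and small (Mrps) subunits is encoded in the nucleus, made in the cytosol and imported. Many of these proteins have a counterpart in the bacterial ribosome, and others exist only in mitochondria. In liver, a tissue rich in mitochondria, they are made in hepatocytes and other cells alike. Of the 76 genes, 49 were assigned to the large subunit. These are all Mrpl genes with Mrps30 and Mrps18a, whose products sit in the large subunit in spite of their names. The small subunit was represented by 26 genes, and Mrps36 was kept apart because its product is a component of the 2-oxoglutarate dehydrogenase complex. A bacterial counterpart was assigned to 47 genes, while 28 were classed as specific to mitochondria.

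The start-site sequences of 5 of the genes are shown as examples of the motifs described below and of genes with contrasting allele use. Mrps18a was expressed more from the MSM allele, Mrpl51 and Mrps36 more from the B6 allele, Mrps26 had the lowest B6-allele frequency, and Mrpl17 was among the 5 genes with the lowest FPKM and holds a motif of a factor known for mitochondrial genes. Each sequence runs 5′ to 3′ on the strand of the gene from 150 bases before to 30 bases after the RefSeq start in the GRCm38.p6 assembly, which is the B6 sequence. The MSM sequence was not used here. Capitals mark matches to one of 3 motifs on either strand. They are CCGGAAG (reverse complement CTTCCGG), bound by GABPA and other ETS factors, GCGCATGC (reverse complement GCATGCGC), the core of the site of nuclear respiratory factor NRF1, and AAGATGGC (reverse complement GCCATCTT), bound by YY1. The stretches lie at chr17:46110854-46111033 (plus strand) for Mrps18a, chr6:125192050-125192229 (plus strand) for Mrpl51, chr7:105811058-105811237 (minus strand) for Mrpl17, chr2:130563607-130563786 (plus strand) for Mrps26 and chr13:100744630-100744809 (minus strand) for Mrps36.
Mrps18a: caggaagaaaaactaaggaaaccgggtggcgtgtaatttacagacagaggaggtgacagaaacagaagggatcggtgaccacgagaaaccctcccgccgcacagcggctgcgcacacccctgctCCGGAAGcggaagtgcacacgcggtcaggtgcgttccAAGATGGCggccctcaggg
Mrpl51: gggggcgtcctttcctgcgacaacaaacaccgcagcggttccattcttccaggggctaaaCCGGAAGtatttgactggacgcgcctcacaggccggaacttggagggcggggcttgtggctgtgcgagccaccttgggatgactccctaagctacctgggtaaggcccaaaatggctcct
Mrpl17: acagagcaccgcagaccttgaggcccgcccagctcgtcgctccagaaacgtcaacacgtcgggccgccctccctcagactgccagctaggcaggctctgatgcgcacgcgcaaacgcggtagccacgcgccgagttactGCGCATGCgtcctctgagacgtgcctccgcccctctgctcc
Mrps26: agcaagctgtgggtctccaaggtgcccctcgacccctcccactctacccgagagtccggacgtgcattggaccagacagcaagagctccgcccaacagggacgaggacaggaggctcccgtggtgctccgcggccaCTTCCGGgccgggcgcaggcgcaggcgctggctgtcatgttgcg
Mrps36: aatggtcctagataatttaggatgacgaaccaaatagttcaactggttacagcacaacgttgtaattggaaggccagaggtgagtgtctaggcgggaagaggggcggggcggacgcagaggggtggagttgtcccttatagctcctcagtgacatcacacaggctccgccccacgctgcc
Mrps18a holds an ETS motif whose first base is at position -26 and a YY1 motif whose first base is at position 11. Positions count the start base as 0. Mrpl51 holds an ETS motif at -90, Mrpl17 an NRF1 core at -11 and Mrps26 an ETS motif on the opposite strand at -14. None of the 3 motifs is present in the stretch shown for Mrps36.

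The labelled tissue was checked first. Of 8 hepatocyte genes, 7 were listed (all but Alb), with a summed FPKM of 15790 to 20723 per mouse. None of 4 lymphoid genes was among those listed. The lowest mean FPKM of any listed gene was 2.50, and absence from the list, as of Alb, does not show that a gene was not expressed. Kupffer cell genes (4 of 6 listed) summed to 97.4 to 137, endothelial genes (6 of 6) to 111 to 132, stellate cell genes (3 of 5) to 90.6 to 128, bile duct genes (1 of 5) to 9.51 to 14.6, and erythroid genes (3 of 4) to 45.2 to 159. The FPKM of all listed genes summed to 529024 to 671875 per mouse. Read counts per gene are not in the files, and the reads of each single library are not given. One mouse stood apart. In MSM-mother replicate 1, Mir3470a was listed at 47025 FPKM, against 0 in the other 3 mice, and short transcripts had higher FPKM than in the other mice, as described below with the expression results. Nothing in the labels says whether the mice of a cross were littermates, and p-values measure only the spread between these 4 mice.

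To learn how the alleles of these genes were used, the B6-allele frequency was examined first. Of the 76 genes, 25 (32.9%) had a frequency, compared with 3632 (41.3%) of all 8797 listed genes. The frequencies present in the files lie mostly beyond 100 Mb on chromosomes 1 to 15 and X and beyond 10 Mb on chromosomes 16 to 19. All 25 genes with a frequency lie beyond these coordinates, where 31 of the 76 are found. The 6 that lie beyond them without a frequency are Mrpl20, Mrpl3, Mrps18b, Mrps30, Mrps34 and Mrps35. The allelic results therefore concern 25 genes, 15 of the large subunit, 9 of the small subunit, and Mrps36.

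Most of the 25 genes were used from both alleles at similar levels. The median of their mean frequencies was 0.530, with a range from 0.30 to 0.764, and the median over all 3632 genes was 0.510. The mean frequency lay between 0.4 and 0.6 for 17 of the 25 (68.0%), compared with 79.0% of all genes with a frequency. It was above 0.5 for 18 (72%, against 56.4% of all genes) and below 0.5 for 7. No gene reached 0.8 or fell to 0.2, the limits at which the study calls a gene allele-biased, and 3.19% of all genes with a frequency were past them. The frequency was above 0.5 in all 4 mice for 13 genes (52.0%, against 33.9% of all genes), below 0.5 in all 4 mice for 3 genes (12.0%, against 22.8%), and on both sides of 0.5 for the remaining 9. The median SD between the 4 mice was 0.0223 for these genes and 0.0272 over all genes.

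**Figure D1:**
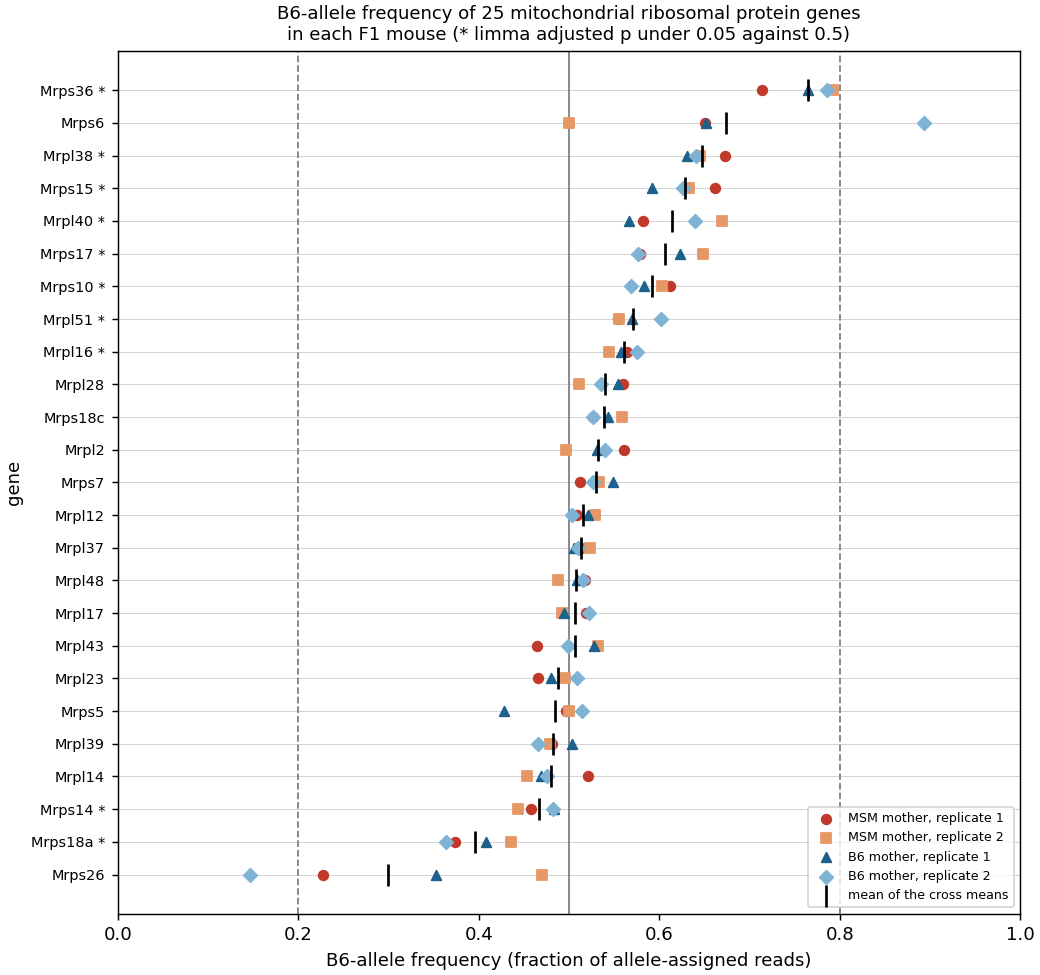
B6-allele frequency (x axis, fraction of allele-assigned reads) of the 25 genes with a frequency (y axis, ordered by mean), with a symbol per mouse, a black bar at the mean, a solid line at 0.5 and dashed lines at 0.2 and 0.8. Asterisks mark the 10 genes with an adjusted p under 0.05, and the symbols of Mrps6 and Mrps26 spread more widely than those of the called genes.

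With limma applied to the log2-transformed odds (B6 reads over MSM reads), 10 of the 25 genes (40.0%) differed from equal use at a Benjamini-Hochberg adjusted p under 0.05, against 36.2% of all genes tested. The share of called genes was thus close to that of the whole table. Toward B6 there were 8 genes (32%, against 22.6% of all genes), and toward MSM there were 2 (8.0%, against 13.6%). At an unadjusted p under 0.05, 11 genes lay toward B6 (44%, against 29.2% of all genes) and 2 toward MSM (8.0%, against 19.8%). The calls rest on 4 mice. Without MSM-mother replicate 1, 2 of the 10 calls remained (Mrpl38 and Mrps36), without MSM-mother replicate 2, 3 remained (Mrpl38, Mrps15 and Mrps36), and without either of the B6-mother mice 0 of the 10 remained, although all 10 estimates kept their sign each time.

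The most B6-shifted of the 25 genes was Mrps36, on chromosome 13 from 100735955 to 100744659, the gene kept apart from both subunits. Its B6-allele frequency was 0.714 and 0.793 in the MSM-mother mice and 0.765 and 0.786 in the B6-mother mice, and 0.764 ± 0.0355 (SD, n = 4) in the mean. Every mouse was above 0.7, and the mice of the crosses overlapped. The log2 odds were 1.71 (SE 0.131, limma adjusted p = 0.0068). The number of allele-assigned reads behind these 4 frequencies is not in the files. The fit gave each mouse the same weight, so its SE and p-value do not take that number into account. Its FPKM was 23.7, 18.6, 18.6 and 19.9 in the same order.

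Among the large-subunit genes, Mrpl38 had the highest frequency. Its product is a large-subunit protein specific to mitochondria. The gene lies on chromosome 11 from 116131817 to 116138868, and its frequency was 0.673 and 0.645 in the MSM-mother mice and 0.631 and 0.641 in the B6-mother mice. The 4 values lay close together and above 0.5, giving log2 odds of 0.88 (SE 0.055, limma adjusted p = 0.0052). Mrpl40, another protein of the large subunit specific to mitochondria, lies on chromosome 16 from 18872018 to 18876862, in a head-to-head arrangement with Hira, a histone chaperone gene. Its frequency varied more, from 0.566 to 0.670, in both crosses alike, and its log2 odds were 0.68 (SE 0.143, limma adjusted p = 0.0417).

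Smaller shifts toward B6 were seen for Mrpl51 and Mrpl16. Mrpl51 (chromosome 6, 125191801 to 125196269), specific to mitochondria, had frequencies of 0.555 and 0.556 in the MSM-mother mice and 0.570 and 0.603 in the B6-mother mice, giving log2 odds of 0.41 (SE 0.0556, limma adjusted p = 0.0180). It is the called gene whose promoter stretch above holds an ETS motif at -90 from the RefSeq start. In GENCODE its 5′ end is annotated farther upstream, at 125191801, and lies 100 bases from that of Ncapd2, a condensin gene on the opposite strand. Mrpl16 (chromosome 19, 11770391 to 11774960), the counterpart of a bacterial protein close to the peptidyl transferase center, ranged from 0.545 to 0.575, giving log2 odds of 0.35 (SE 0.0504, limma adjusted p = 0.0200).

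The small-subunit genes called toward B6 were Mrps15, Mrps17 and Mrps10, all with bacterial counterparts. Mrps15, whose bacterial counterpart binds the ribosomal RNA early in assembly, lies on chromosome 4 from 126046925 to 126055532. Its frequency was 0.662 and 0.633 in the MSM-mother mice and 0.592 and 0.626 in the B6-mother mice. All 4 mice were above 0.59, and the log2 odds were 0.76 (SE 0.0668, limma adjusted p = 0.0087). Mrps17 (chromosome 5, 129715497 to 129722556) ranged from 0.577 to 0.649 and had log2 odds of 0.63 (SE 0.106, limma adjusted p = 0.0270). Mrps10 (chromosome 17, 47368887 to 47381417) ranged from 0.569 to 0.612 and had log2 odds of 0.54 (SE 0.0448, limma adjusted p = 0.0080).

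Toward MSM, Mrps18a and Mrps14 were called. Mrps18a (chromosome 17, 46110986 to 46128910) encodes one of 3 mammalian relatives of a single bacterial small-subunit protein, and the only one of them that is built into the large subunit. Its B6-allele frequency was 0.374 and 0.436 in the MSM-mother mice and 0.408 and 0.364 in the B6-mother mice, so that all 4 mice were below 0.44. The log2 odds were -0.61 (SE 0.0983, limma adjusted p = 0.0243). The relative Mrps18c, a small-subunit gene on chromosome 5, had frequencies of 0.526, 0.559, 0.543 and 0.527, and its log2 odds of 0.23 (SE 0.0577) did not pass the test (limma adjusted p = 0.0626). Mrps18b, the third relative, had no frequency. Mrps14 (chromosome 1, 160195215 to 160202170), a small-subunit gene with a bacterial counterpart, had frequencies of 0.458, 0.444, 0.484 and 0.482, close to equal use but below it in every mouse, giving log2 odds of -0.19 (SE 0.0438, limma adjusted p = 0.0497). This call was the closest to the threshold.

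Mrps26 and Mrps6 had means farther from 0.5 than most of the called genes but were not called. Mrps26 (chromosome 2, 130563742 to 130568695), specific to mitochondria, had frequencies of 0.228 and 0.471 in the MSM-mother mice and 0.353 and 0.147 in the B6-mother mice. All 4 were below 0.5, yet the spread within each cross was large, with a mean of 0.30 ± 0.142 (SD, n = 4) and log2 odds of -1.33 (SE 0.448, limma adjusted p = 0.104). Mrps6 (chromosome 16, 92058270 to 92112227), the counterpart of a bacterial protein that pairs with the S18 family, had 0.651 and 0.50 in the MSM-mother mice and 0.652 and 0.893 in the B6-mother mice, with a mean of 0.674 ± 0.162 (SD, n = 4) and log2 odds of 1.22 (SE 0.454, limma adjusted p = 0.126). A single mouse moved this value, to 0.68 without B6-mother replicate 2. The number of allele-assigned reads behind these values is not in the files.

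The reciprocal crosses separate an effect of strain from an effect of the parent that gave the allele. In limma, 0 of the 25 genes differed in B6-allele frequency between the crosses (adjusted p under 0.05, against 0.0826% of all genes), and 0 had an unadjusted p under 0.05 (against 5.23%). The mean frequency differed most between the MSM-mother and the B6-mother mice for Mrps6, Mrps26 and Mrps15. For Mrps6 the cross means were 0.576 and 0.773, a difference (MSM mother minus B6 mother) in log2 odds of -1.53 (SE 0.908, limma adjusted p = 0.877). For Mrps26 they were 0.349 and 0.250, a difference of 0.74 (SE 0.895, limma adjusted p = 0.934), and for Mrps15 they were 0.648 and 0.609, a difference of 0.24 (SE 0.134, limma adjusted p = 0.873). Leaving out a mouse moved these differences to between -2.61 (without B6-mother replicate 1) and -0.46 (without B6-mother replicate 2) for Mrps6, to between -0.09 (without B6-mother replicate 2) and 1.57 (without B6-mother replicate 1) for Mrps26, and to between 0.14 (without B6-mother replicate 1) and 0.34 (without B6-mother replicate 2) for Mrps15. The frequencies of the crosses overlapped for Mrps26. They did not for Mrps15, nor, by a narrow margin, for Mrps6 (0.651 against 0.652). With 2 mice per cross, an exact permutation test of a single gene cannot go below p = 0.33.

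Other genes of mitochondrial translation were examined in the same fit. Of 54 genes on a list of subunits with other names, translation factors, assembly factors and aminoacyl-tRNA synthetases of mitochondria, 44 were listed. A frequency was present for 20 of them, of which 6 were called toward B6 and 4 toward MSM (50% called). Of all genes tested, 36.2% were called, 22.6% toward B6 and 13.6% toward MSM. The 6 subunits with other names were all listed but had no frequency. Among assembly factors, Rbfa, which helps to mature the small subunit, had a frequency of 0.668 ± 0.0190 (SD, n = 4) and log2 odds of 1.01 (SE 0.0707, limma adjusted p = 0.0060). Mtif3, the initiation factor, had 0.354 ± 0.0268 (SD, n = 4) and log2 odds of -0.87 (SE 0.0557, limma adjusted p = 0.0054). Of 10 synthetase genes with a frequency, 4 were called toward B6 and 2 toward MSM (60% called), with Lars2 at 0.680 and Pars2 at 0.334. Side by side, 7 of 32 cytosolic ribosomal protein genes with a frequency were called toward B6 and 0 toward MSM (21.9% called). Of 25 oxidative phosphorylation subunit genes, 4 were called toward each allele (32% called). The median frequency was 0.505 for the cytosolic ribosomal protein genes and 0.492 for the oxidative phosphorylation subunit genes. Cytosolic ribosomal protein genes have many near-identical copies, and mitochondrial ribosomal protein genes can also have pseudogenes. A read that fits several places was kept at a single place by the authors, and how many reads such copies share was not measured.

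Expression levels were compared next. FPKM is scaled to transcript length, which allows levels of different genes to be set side by side, although the mice differed in FPKM by length, as given below. The mean FPKM of the 76 genes had a median of 24.9, with quartiles of 17.1 and 41.9 and a range from 3.03 to 118. The median of all listed genes was 11.5, that of 81 cytosolic ribosomal protein genes was 309, and that of 77 oxidative phosphorylation subunit genes was 203. The median was 27.5 for large-subunit genes and 23.6 for small-subunit genes, and 30.8 for genes with a bacterial counterpart and 21.7 for those specific to mitochondria. The quartiles of these subgroups overlapped (16.8 to 46.9 for the large and 17.6 to 37.4 for the small subunit). The 9 listed translation factors had a median of 13.5.

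**Figure D2:**
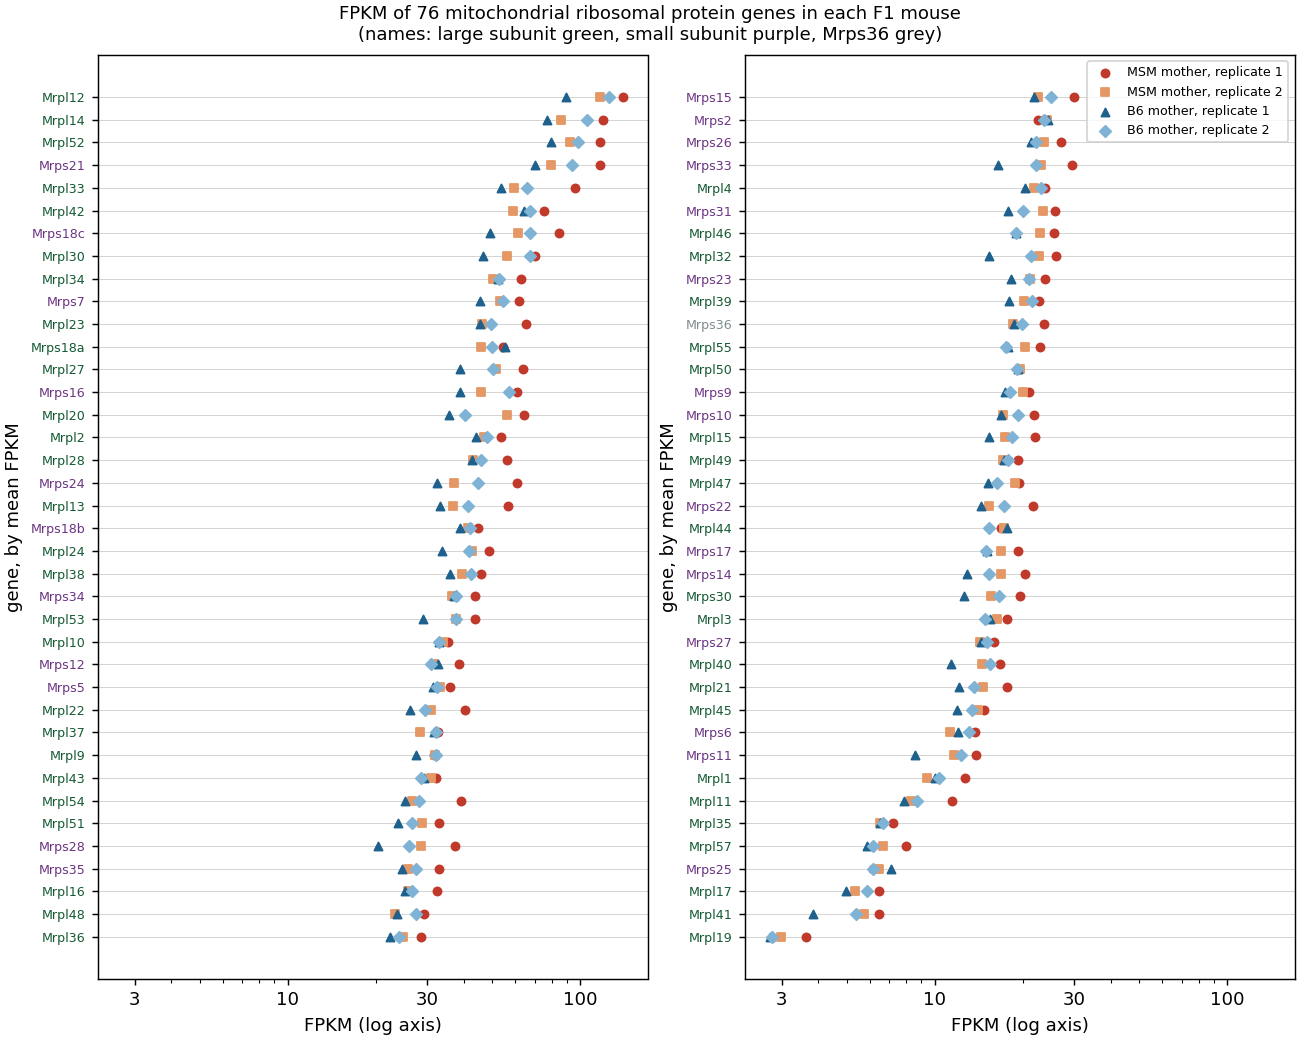
FPKM (x axis, log scale) of the 76 genes in each of the 4 mice, in order of mean FPKM and continued in the right panel, with name colors for the subunits. The red circles of MSM-mother replicate 1 are the rightmost symbol for 70 of the 76 genes.

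The highest mean FPKM was that of Mrpl12, which forms the flexible stalk of the large subunit where translation factors bind. It had 140 and 117 FPKM in the MSM-mother mice and 89.4 and 125 in the B6-mother mice. Mrpl14, which lies at the interface of the subunits, had 120 and 86.1 in the former and 77.2 and 106 in the latter. Mrpl52, specific to mitochondria, had 117, 92.1, 79.6 and 98.5 in the same order. Mrps21 and Mrpl33, small proteins with bacterial counterparts, followed with 117, 79.3, 70.3 and 93.8 FPKM and with 95.9, 59.4, 53.6 and 65.9 FPKM. For these 5 genes MSM-mother replicate 1 was the highest mouse and B6-mother replicate 1 the lowest, and the spread between mice was wider than the steps from one gene to the next among Mrpl14, Mrpl52 and Mrps21.

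At the other end, Mrpl19, counterpart of a bacterial large-subunit protein, had 3.62, 2.98, 2.74 and 2.79 FPKM in the same order. Mrpl41, specific to mitochondria, had 6.44, 5.72, 3.84 and 5.37. Mrpl17, with a bacterial counterpart, had 6.45, 5.36, 4.97 and 5.86, and Mrpl57, specific to mitochondria, had 8.0, 6.64, 5.88 and 6.14. Mrps25, the lowest small-subunit gene, had 6.13, 6.45, 7.09 and 6.16, and was one of 2 genes for which MSM-mother replicate 1 was the lowest mouse. Apart from Mrpl19, the values of these genes overlapped one another.

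The relatives Mrps18a, Mrps18b and Mrps18c were all expressed. Mrps18c had the highest mean of them, 65.6 ± 14.7 FPKM (SD, n = 4), followed by Mrps18a with 51.4 ± 4.55 and Mrps18b with 41.8 ± 2.35. In single mice Mrps18c ranged from 49.2 to 84.5, Mrps18a from 45.7 to 55.5 and Mrps18b from 39.0 to 44.7, so that Mrps18c overlapped Mrps18a, while Mrps18a and Mrps18b did not overlap.

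Between the crosses, 0 of the 76 genes differed in expression in limma on log2(FPKM + 1) (adjusted p under 0.05, against 0.0455% of all genes tested). At an unadjusted p under 0.05 there were 5 (6.58%, against 4.46% of all genes) higher in the MSM-mother mice and 0 (against 4.41%) higher in the B6-mother mice. The estimated difference was above 0, that is, higher with an MSM mother, for 71 genes and below 0 for 5, with a median of 0.19 on the log2 scale against 0.0187 over all genes. The share of all genes above 0 was not computed. The median was 0.334 over the oxidative phosphorylation subunit genes and 0.168 over the cytosolic ribosomal protein genes. Both MSM-mother mice were above both B6-mother mice for 28 genes (36.8%, against 23.0% of all listed genes), and both B6-mother mice were above both MSM-mother mice for 0 (against 19.4%). Of 77 oxidative phosphorylation subunit genes, 47 lay above in this way and 1 below. Of 81 cytosolic ribosomal protein genes, 8 lay above and 2 below. With the levels scaled by median ratios the count for the 76 genes was again 28, but the share of all listed genes after scaling was not computed. Without MSM-mother replicate 1 the count was 28, against 36.6% of all listed genes, which is close to the share of the 76 genes.

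**Figure D3:**
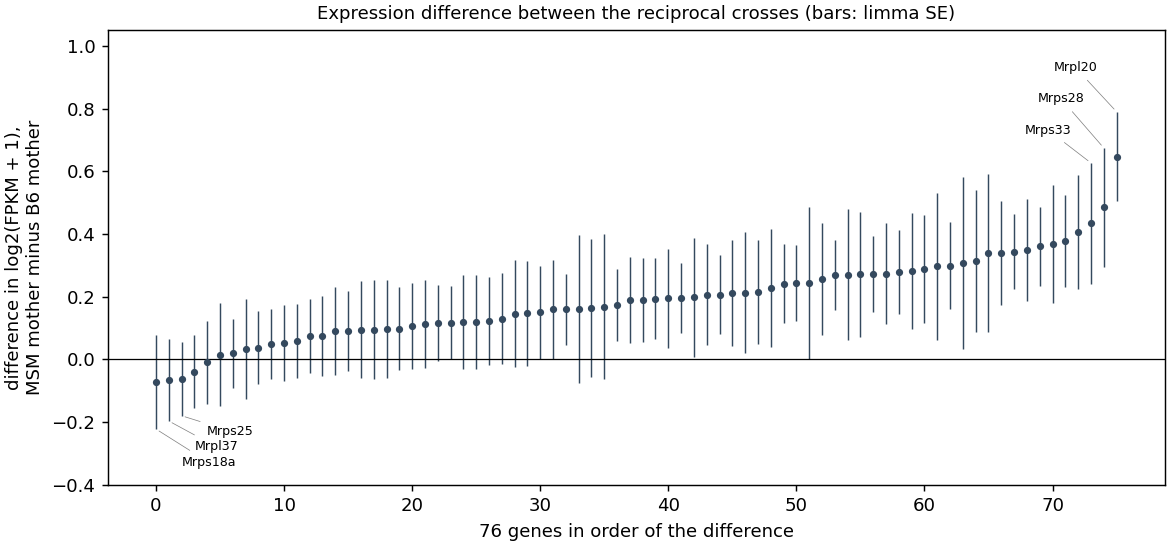
Estimated difference in log2(FPKM + 1) between the crosses (y axis, MSM mother minus B6 mother) for the 76 genes in order of the difference (x axis), with bars of 1 limma SE. The points run from -0.07 to 0.65, and none of the differences passed the test.

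The largest difference was that of Mrpl20, whose bacterial counterpart is needed for assembly of the large subunit. It had 64.2 and 56.4 FPKM in the MSM-mother mice and 35.8 and 40.5 in the B6-mother mice. The crosses did not overlap, and the difference was 0.65 (SE 0.143, limma adjusted p = 0.354). Mrps28, the counterpart of a bacterial protein that helps mRNA to bind, had 37.4 and 28.5 against 20.3 and 26.1, a difference of 0.49 (SE 0.190, limma adjusted p = 0.553). Mrps33, specific to mitochondria, had 29.5 and 23.0 against 16.4 and 22.1, a difference of 0.43 (SE 0.193, limma adjusted p = 0.578). The difference of Mrps28 was 0.29 without MSM-mother replicate 1 and 0.31 without B6-mother replicate 1, and that of Mrps33 was 0.26 and 0.23. The 3 genes with the most negative differences were Mrps18a with -0.07 (SE 0.151), Mrpl37 with -0.07 (SE 0.131) and Mrps25 with -0.06 (SE 0.117), all smaller than their SE. None of the 10 genes called for allelic imbalance was called for total expression between the crosses, among them Mrps18a with 54.6 and 45.7 FPKM against 55.5 and 49.8. Every mouse carried both alleles, so this comparison cannot show whether the imbalance alters the total level of a gene.

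Markers of other liver cells were also summed, and 0 of them passed the expression test. The 4 listed Kupffer cell genes summed to 106 and 97.4 FPKM in the MSM-mother mice and to 137 and 129 in the B6-mother mice, and each of the 4 was higher in both B6-mother mice. The 6 endothelial genes summed to 118 and 111 against 128 and 132, and 4 of them were higher in both B6-mother mice. Stellate cell genes summed to 128 and 112 against 90.6 and 109, and hepatocyte genes to 20306 and 20723 against 15790 and 19875, both higher in the MSM-mother mice. Gene by gene, 1 of the 3 stellate cell genes and 5 of the 7 hepatocyte genes were higher in both MSM-mother mice. Of all listed genes, 23.0% were higher in both MSM-mother mice and 19.4% in both B6-mother mice. Erythroid genes summed to 133 and 45.2 against 159 and 51.4. Of these 3, only Hbb-bs was higher in both B6-mother mice, with 2.13 and 3.02 FPKM against 14.3 and 23.1. The listed bile duct gene had 14.6 and 9.51 FPKM against 12.0 and 12.3. In such bulk tissue, fewer cells of a type and less RNA per cell cannot be told apart, and the part of these differences in the expression results was not tested.

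The order of the mice was much alike from gene to gene. MSM-mother replicate 1 had the highest FPKM for 70 of the 76 genes (92.1%, against 39.1% of all listed genes), and B6-mother replicate 1 the lowest for 55. The share of all listed genes lowest in B6-mother replicate 1 was not computed. Its FPKM relative to the mean of all mice had a median of 0.881 over the 76 genes and 0.985 over all genes. The ratio of MSM-mother replicate 1 to the mean of the other 3 mice had a median of 1.24 over the 76 genes and 1.03 over all genes. It was 1.25 over the cytosolic ribosomal protein genes, of which 72 of 81 were highest in this mouse, and 1.46 over the oxidative phosphorylation subunit genes, of which 75 of 77 were. The summed FPKM of the 76 genes was 2883 and 2330 in the MSM-mother mice and 2084 and 2428 in the B6-mother mice. This was 0.429%, 0.432%, 0.394% and 0.424% of the summed FPKM of all listed genes. With Mir3470a left out, the share of MSM-mother replicate 1 was 0.462%. In both forms the crosses did not overlap and the exact permutation test gave p = 0.33 (two-sided), the smallest that 2 mice against 2 allow. With the 50 genes of highest mean FPKM left out, the crosses did overlap. The shares were then 0.666% and 0.610% in the MSM-mother mice and 0.567% and 0.618% in the B6-mother mice.

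The ratio of MSM-mother replicate 1 to the mean of the other mice varied with transcript length over all genes. The transcripts of the 76 genes had a median length of 1225 bases (GENCODE M21), against 2519 bases for the other listed genes. Among other listed genes under 1000 bases, the median ratio of MSM-mother replicate 1 to the other mice was 1.30 and 81.5% were highest in this mouse. From 1000 bases to below 2000 the ratio was 1.14 (60.6%), from 2000 to below 4000 it was 1.00 (29.9%), and from 4000 bases it was 0.862 (9.21%). In the same classes the genes of the mitochondrial ribosome had median ratios of 1.30 (30 genes, 29 of them highest in this mouse), 1.21 (27 genes, 25 highest), 1.16 (13 genes, 11 highest) and 1.20 (6 genes, 5 highest). In the shortest class they thus had nearly the same median as other genes of that length, and in the longer classes their median lay above that of other genes. The part of transcript length in the expression results was not tested.

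**Figure D4:**
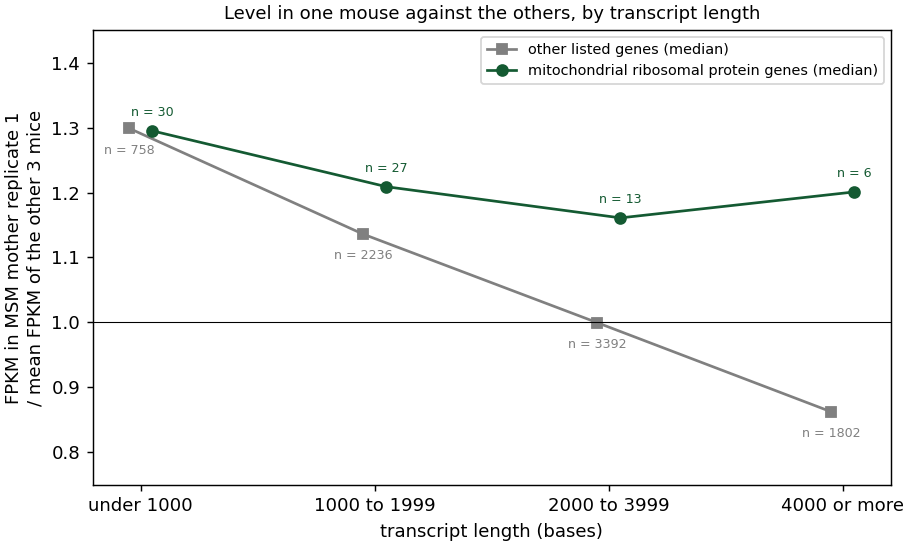
Median ratio of the FPKM in MSM-mother replicate 1 to the mean FPKM of the other 3 mice (y axis) by transcript length in bases (x axis), for the 76 genes (green circles) and the other listed genes (grey squares), with the number of genes at each point. The grey line falls from 1.30 to 0.862, whereas the green line stays between 1.16 and 1.30.

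Features of the start sites that do not depend on these measurements were then described. A promoter window from 250 bases before to 50 after the start, was found for 67 of the 76 genes in RefSeq (GRCm38.p6). The ETS motif CCGGAAG was present on either strand in 24 of the 67 (35.8%), against 22.2% of 6714 listed genes with a window and 9.93% of all 27025 genes with one. The YY1 motif AAGATGGC was present in 12 (17.9%, against 6.03% and 3.19%), and the NRF1 core GCGCATGC in 8 (11.9%, against 6.55% and 3.05%). Any of the 3 motifs was found in 36 genes (53.7%, against 31.4% and 14.9%) and at least 2 of them in 8 (11.9%, against 3.35% and 1.24%). No matches of different motifs overlapped in these windows. The 12 YY1 matches had a median first base at position 15, with 8 of them after the start and 8 on the strand of the gene. The 28 ETS matches had a median of -17.5 and the 14 NRF1 matches of -49.5. Mrpl32 alone held 4 NRF1 matches and a YY1 match. NRF1 matches on opposite strands overlapped in Mrpl32 (-87 and -85), Mrpl9 (-28 and -26) and Mrpl39 (-125 and -123), so matches outnumber separate sites. A match is a stretch of letters and not evidence that a factor binds.

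Windows of these genes and of listed genes both held a median of 21 CpG dinucleotides, against 7 over all genes, and their median GC contents were 58.3%, 60.7% and 52.7%. Among the 10 genes called for allelic imbalance, 9 had a window and 2 of these, Mrps18a and Mrpl51, held a motif. Mrps26 and Mrpl17, which were not called, held one too.

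**Figure D5:**
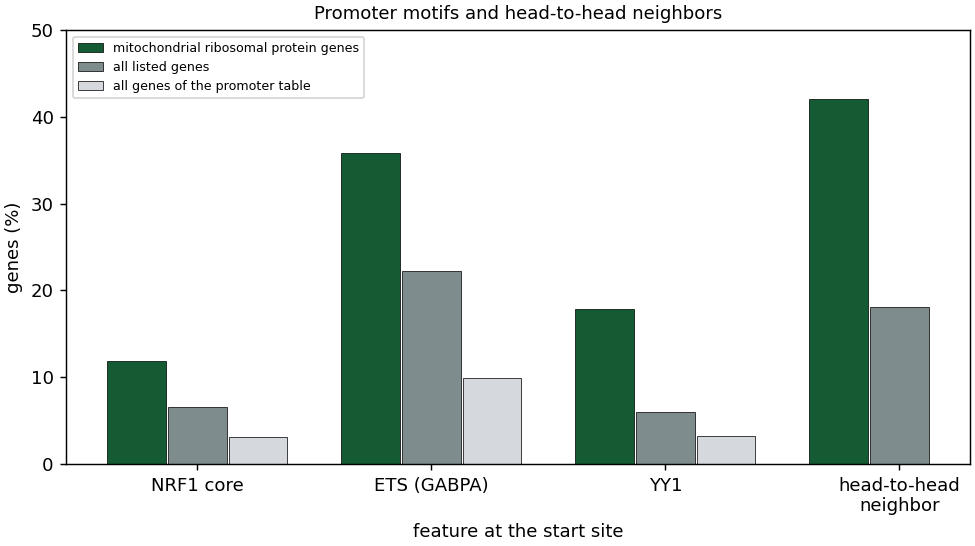
Share of genes (y axis, percent) with each motif in the promoter window and with a head-to-head neighbor (x axis), for the mitochondrial ribosomal protein genes (green), all listed genes (dark grey) and, for the motifs, all genes of the promoter table (light grey). The green bar is the tallest for all 4 features, from 11.9% for the NRF1 core to 42.1% for a head-to-head neighbor.

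Many of the genes shared their start region with another gene. A protein-coding neighbor on the opposite strand with its 5′ end within 1000 bases of the start was found for 32 of the 76 genes (42.1%), against 1526 of 8434 listed genes with a GENCODE position (18.1%). Mrps11 and Mrpl46, on chromosome 7, are neighbors of this kind and both encode mitochondrial ribosomal proteins, 1 of each subunit. Their annotated 5′ ends overlap, so that Mrps11 starts at 78783119 and Mrpl46 ends at 78783531. Mrps11 had 13.8, 11.7, 8.56 and 12.3 FPKM and Mrpl46 had 25.7, 23.0, 18.9 and 18.96, in the order of mice used above, so the pair differed in level in every mouse. Other partners belong to the mitochondrion as well. Mrpl36 pairs with Ndufs6 and Mrpl47 with Ndufb5, both of respiratory complex I, Mrpl43 with Twnk, the helicase of mitochondrial DNA, and Mrps12 with Sars2, the mitochondrial seryl-tRNA synthetase. Mrpl32 lies beside the proteasome gene Psma2 and Mrpl49 beside Fau, which encodes a cytosolic ribosomal protein. Mrps18b and Mrps18c lie beside Ppp1r10 and Helq, at 45 and 29 bases. These partners were picked from the 32 after they were seen.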

How the data were processed

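Liver mRNA of 4 F1 mice was examined, with groups and replicate numbers taken from the labels. Reads had been trimmed by the authors (Trim Galore!), placed on SNP-masked mm10 (Tophat2, stranded, at most 1 place per read) and split by allele (SNPsplit). Expression was deposited by the authors in FPKM. The B6-allele frequency was deposited as a fraction from 0 to 1, computed by the authors from Cuffdiff read counts of each allele, where more than 10 reads discriminated the alleles. Tool versions were not given in the sources used here.

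Frequencies were limited to 0.01 to 0.99, turned into log2 odds and tested with limma 3.58.1 in R 4.3.3. The intercept (mean of both crosses) tested imbalance and the cross term the difference between crosses. Expression was tested with limma with a variance trend on log2(FPKM + 1), with a minimum of 1 for the mean FPKM, which all 8797 listed genes passed. Fold changes on this scale understate those of low genes. Tests were two-sided, fitted on all genes, with Benjamini-Hochberg adjustment and a threshold of 0.05. They were also run on simulated data, with planted effects larger than any estimated for the genes described. How often effects of the estimated sizes would be called was not tested. Python 3.11.15, numpy 2.4.6, pandas 2.3.3, scipy 1.17.1 and matplotlib 3.10.9 were used. Positions came from GENCODE M21 (8434 genes) or RefSeq symbols (15) and synonyms (329) on the same assembly, and 19 genes had none. Transcript length was the median over a gene's protein-coding transcripts.

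The genes and lists were chosen with earlier results of these data known. Length classes, the omission of Mir3470a, the non-overlap count without MSM-mother replicate 1 and that count after scaling were chosen after seeing the data. Genes were named by a rule: those called, those with a mean frequency of at least 0.7 or at most 0.3, the 5 highest and 5 lowest in FPKM, the 3 largest expression differences in each direction, the 3 largest frequency differences between the crosses, those beyond the coordinates without a frequency, Mrps18a, Mrps18b and Mrps18c, and head-to-head genes shown for a motif. Mrps11, Mrpl46, Mrpl32, the other head-to-head pairs and the genes of other lists were named after their values were seen. One further gene with a name of this pattern is not reported here.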

Additional observations from a re-analysis of the deposited data

How the results depend on the processing

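The counts of allelic imbalance were the results that moved most. Toward B6 the count of 8 became 0 to 3 when each mouse was left out, and toward MSM the count of 2 became 0 to 0. Such fits have fewer mice by construction, and the lone mouse of a cross is assumed to vary like the others. Equal replicate numbers were not shown to pair the mice (r = 0.146 for deviations in log2 odds and 0.00375 in log2 expression). With a replicate block the counts were 5 toward B6 and 0 toward MSM, with Mrpl38, Mrpl40, Mrps10, Mrps15 and Mrps36 kept. With frequency limits set closer to 0 and 1, 1 gene was called toward MSM, as Mrps14 was lost. Its log2 odds stayed at -0.191, while its SE went from 0.0438 to 0.0454 and its limma adjusted p from 0.0497 to 0.0537. The source of the larger SE was not tested. Under the other scales, filters and centring all 10 calls were kept, and Mrps18c was also called with a variance trend on expression. The median frequency of 0.530 was 0.523 to 0.530 with a mouse left out. Limits of 0.7 and 0.3 gave 2 genes past them, Mrps36 and Mrps26. The share of summed FPKM, 0.420% in the mean of the mice, was 0.615% without the 50 genes with the highest FPKM and 0.339% without the 5 highest of the genes described, by construction. Some uncalled differences between the crosses changed sign with a mouse left out. With each mouse left out in turn, the expression difference ranged from -0.198 to 0.055 for Mrps18a (above 0 without MSM-mother replicate 2 and, at 0.0044, without B6-mother replicate 1), from -0.168 to 0.0365 for Mrpl37 (above 0 without MSM-mother replicate 2) and from -0.151 to 0.02515 for Mrps25 (above 0 without B6-mother replicate 1). The difference in log2 odds of Mrps26 ranged from -0.0900 to 1.57, and was below 0 without replicate 2 of either cross. The number of allele-assigned reads per gene is not in the files, which limits what a single frequency shows.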
